A study of Mus musculus with 2 samples.

Results

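The genes described here are 10 genes of vessel growth: the ligand genes Vegfa, Vegfb and Vegfc, the VEGF receptor genes Flt1, Kdr and Flt4, the co-receptor gene Nrp1, the angiopoietin gene Angpt1 with its receptor gene Tek, and Robo4, which encodes a receptor of vessel lining. They were chosen by gene symbol, with earlier results of the same arrays known. All probe sets that carry one of these symbols, and no other, in the array annotation were taken. That gave 21 probe sets of 45037 that are not controls, and 10 genes of 18193 with an annotated probe set. Washed platelets of C57BL/6 mice were compared on Affymetrix arrays, with 1 array for Smad4 -/- and 1 array for Smad4 f/f. In Smad4 -/- mice, Smad4 flanked by loxP sites is removed by a Cre recombinase under the promoter of platelet factor 4, a promoter of megakaryocytes and platelets. Smad4 f/f mice carry the same floxed allele and serve as controls, and the labels do not say whether they also carry a Cre transgene. The series design gives 6 mice per genotype. Whether their RNA was pooled and the age of the mice are not given in the sources used here.

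VEGF proteins act through receptor tyrosine kinases. Kdr carries most of the growth signal in endothelial cells, Flt1 binds VEGF-A, VEGF-B and placental growth factor and is also made as a soluble form that holds ligand back, and Flt4 is the receptor of lymphatic vessels. Angiopoietin 1 activates the receptor Tek (Tie2) and steadies vessels. Platelets lack a nucleus. Their mRNA comes from the megakaryocyte, and they store VEGF and angiopoietin 1 in their alpha granules.

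Because there is 1 array per genotype, the values below set 1 array against another. No spread within a genotype can be estimated, and no test or p-value is given. The deposited values are log2 signals, given here also as linear signals in array units. A signal floor was set at the higher of the arrays' 60th percentiles, which was a linear signal of 145 (7.18 on the log2 scale). A probe set counted as measured if it reached the floor on at least 1 array, and signals under the floor were raised to it before a ratio was taken. A fold with 1 side under the floor is therefore a lower bound. A 2-fold difference serves as a rule of size only. As a technical yardstick, the log2 ratios of measured probe sets of the same gene had a pooled SD of 0.48 over 4252 genes. It describes how far probe sets of a gene differ, and does not measure variation between mice or arrays that those probe sets share.

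Smad4 is the gene targeted in these mice. Its 3 probe sets read 288, 894 and 548 in Smad4 -/- and 313, 949 and 600 in Smad4 f/f, with log2 ratios of -0.12, -0.09 and -0.13. Where these probe sets lie in Smad4 was not analysed here, and probes outside the deleted exons could not check the genotype. The labels state that loss of the protein was checked by Western blotting. Of the platelet and megakaryocyte markers, 12 of 14 had an annotated probe set used here, and all 12 lay above the floor on both arrays, with a median log2 ratio of 0.08. At or above the floor were 17361 probe sets in Smad4 -/- and 18015 in Smad4 f/f. As a measure of RNA quality, the 3' to 5' signal ratio of the Gapdh controls was 2.61 in Smad4 -/- and 1.86 in Smad4 f/f, and that of beta-actin was 1.27 in Smad4 -/- and 1.16 in Smad4 f/f.

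Flt1 held the only VEGF and angiopoietin probe sets past 2-fold, with 2 of its 4 probe sets at least 6.17-fold and 9.38-fold higher in Smad4 -/- platelets. Kdr and Angpt1 lay within 2-fold and above a log2 ratio of 0, and Robo4 lay within 2-fold on the lower side. For Nrp1, 2 probe sets were higher in Smad4 -/- by lower bounds of 1.41-fold and 1.21-fold. Its other probe sets stayed under the floor on both arrays, with lower signals in Smad4 -/-. Vegfa, Vegfb, Vegfc, Flt4 and Tek had no probe set that reached the floor on either array. Of the 21 probe sets, 10 were measured, 2 passed 2-fold upwards in Smad4 -/- and 0 downwards. Over the 21377 measured probe sets of the arrays, 3.24% were at least 2-fold higher (693) and 3.51% were at least 2-fold lower (751). With each array centred on its median, those counts became 895 higher and 598 lower, and the counts for the VEGF and angiopoietin genes stayed at 2 and 0. As these genes were chosen with such values known, the counts describe them and carry no test.

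**Figure D1:**
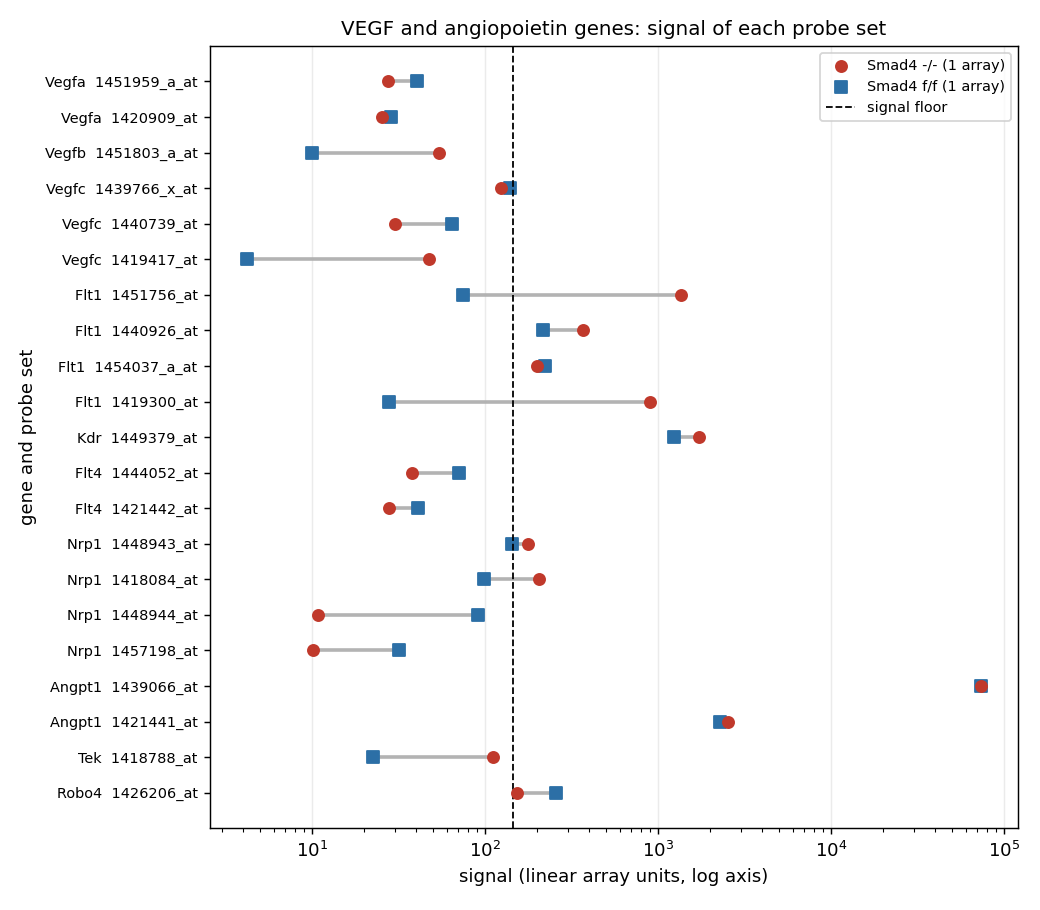
Signal of each of the 21 probe sets of the VEGF and angiopoietin genes on the Smad4 -/- array (circles) and the Smad4 f/f array (squares), on a log axis in linear array units. The dashed line is the signal floor of 145. The Flt1 probe sets 1451756_at and 1419300_at cross the floor with wide gaps (1361 against 74.95 and 896 against 27.7), and the Angpt1 pairs nearly coincide.

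Flt1 encodes VEGF receptor 1. Probe set 1451756_at read 1361 in Smad4 -/- and 74.95 in Smad4 f/f. With the Smad4 f/f signal under the floor, this was at least 9.38-fold higher in Smad4 -/-, a log2 ratio of 3.23. It ranked 6 from the highest of 21377 measured probe sets. Probe set 1419300_at, the Flt1 probe set built on a RefSeq mRNA, read 896 in Smad4 -/- and 27.7 in Smad4 f/f, at least 6.17-fold higher (log2 ratio 2.63), and ranked 17. On both of these probe sets the Smad4 -/- signal was well above the floor and the Smad4 f/f signal under it.

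The other Flt1 probe sets did not pass 2-fold. Probe set 1440926_at, built on an expressed sequence tag, read 367 in Smad4 -/- and 215 in Smad4 f/f, a log2 ratio of 0.77 that is short of 2-fold. Probe set 1454037_a_at read 199 in Smad4 -/- and 223 in Smad4 f/f, a log2 ratio of -0.16. These probe sets were above the floor on both arrays, so in Smad4 f/f 2 Flt1 probe sets read above the floor and the other 2 under it. Except for 1440926_at in Smad4 -/-, their signals were low and lay under a 75th percentile floor of 260. The mean log2 ratio of the 4 was 1.61. Their SD was 1.58, against a median SD of 0.31 over the 4252 genes with 2 or more measured probe sets, where Flt1 ranked 19 from the widest. Which Flt1 transcripts each probe set reads, soluble or full length, was not analysed here. Since platelets were measured in bulk, fewer cells of a type and less RNA per cell cannot be told apart.

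**Figure D2:**
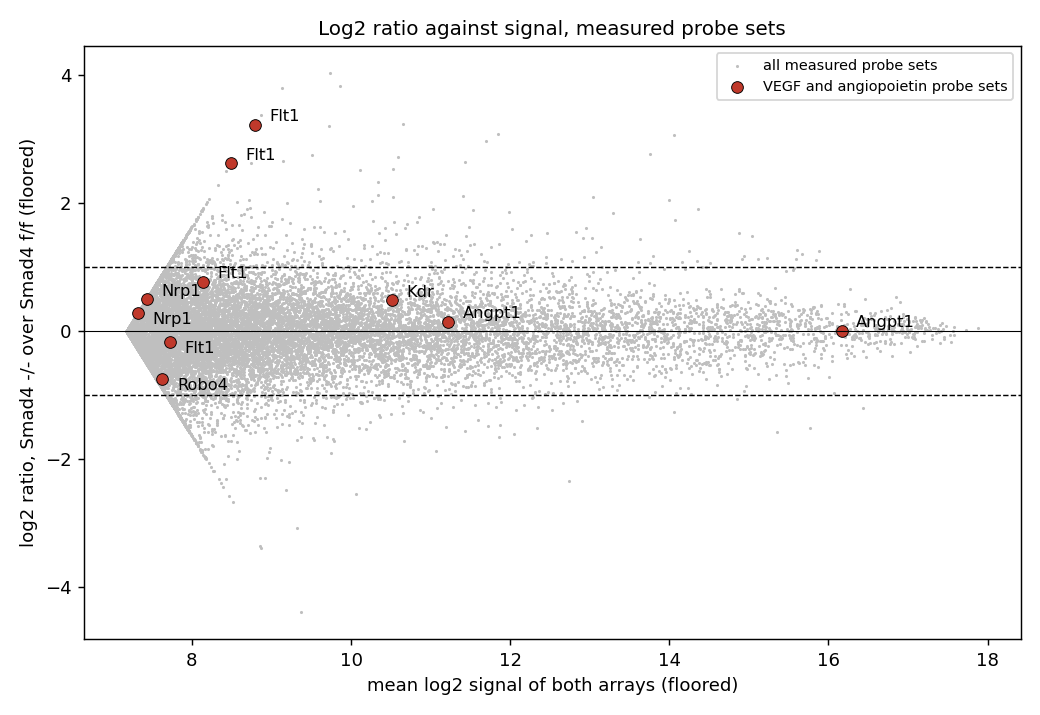
Log2 ratio of Smad4 -/- over Smad4 f/f against the mean log2 signal of both arrays, after raising signals to the floor, for the 21377 measured probe sets (grey) and the 10 measured probe sets of the VEGF and angiopoietin genes (red). Dashed lines mark 2-fold. Flt1 lies at log2 ratios of 3.23 and 2.63 by 2 probe sets and at 0.77 and -0.16 by the others, and the remaining genes lie inside the 2-fold lines.

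The region before the start of the gene is shown for Flt1, whose signal differed most, and for Kdr and Robo4, the other receptors of this group with a measured probe set on both arrays. The sequences are from RefSeq on GRCm38.p6 and run from 250 bases before to 50 bases after the annotated start, 5′ to 3′ in the direction of the gene. They lie at chr5:147725962-147726261 on the minus strand for Flt1, chr5:75978406-75978705 on the minus strand for Kdr and chr9:37401722-37402021 on the plus strand for Robo4. Capitals mark matches to the motifs searched on both strands.
Flt1: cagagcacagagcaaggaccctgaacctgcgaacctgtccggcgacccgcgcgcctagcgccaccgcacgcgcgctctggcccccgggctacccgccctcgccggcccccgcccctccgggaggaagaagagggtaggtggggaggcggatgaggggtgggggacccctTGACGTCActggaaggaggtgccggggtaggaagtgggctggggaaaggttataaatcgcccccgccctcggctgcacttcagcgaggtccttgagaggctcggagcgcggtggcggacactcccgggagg
Kdr: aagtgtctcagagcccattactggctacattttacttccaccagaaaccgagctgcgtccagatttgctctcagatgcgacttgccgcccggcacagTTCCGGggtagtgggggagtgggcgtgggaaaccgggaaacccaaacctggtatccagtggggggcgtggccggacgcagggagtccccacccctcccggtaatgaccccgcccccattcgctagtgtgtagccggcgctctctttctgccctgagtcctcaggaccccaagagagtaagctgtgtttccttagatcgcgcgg
Robo4: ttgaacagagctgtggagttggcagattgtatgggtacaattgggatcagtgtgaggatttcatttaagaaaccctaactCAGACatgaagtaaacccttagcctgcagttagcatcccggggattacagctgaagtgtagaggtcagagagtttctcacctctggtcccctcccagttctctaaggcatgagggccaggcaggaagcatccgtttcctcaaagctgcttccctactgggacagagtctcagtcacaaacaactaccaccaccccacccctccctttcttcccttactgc

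The motifs were the SMAD palindrome GTCTAGAC, the short SMAD motif CAGAC, the ETS motif CCGGAA, the GATA motif AGATAA and the cAMP response element TGACGTCA. No matches overlapped in the windows shown. Flt1 held the cAMP response element at position 170 of its window, counted from 1 at the 5′ end, and neither SMAD motif. Kdr held the ETS motif at position 98, and Robo4 held the short SMAD motif at position 81. The table matched 9 of the 10 genes, all but Angpt1, with 10 windows. Of these windows, 4 held the short SMAD motif (the 2 of Vegfa and those of Nrp1 and Robo4), against 49.6% of 32851 windows of the same length over all genes. The palindrome stood in 0 of the 10 and in 0.213% of all windows. The cAMP response element stood in 1 of the 10, that of Flt1, and in 1.79% of all windows. The ETS motif stood in 1 of the 10 and in 14.9% of all, and the GATA motif in 2, those of Tek and Vegfa, and in 11.2% of all. A match describes letters in a window and is no evidence of a bound site.

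Kdr encodes VEGF receptor 2, the main signalling receptor of VEGF-A. It has 1 probe set, 1449379_at, which read 1733 in Smad4 -/- and 1237 in Smad4 f/f. Both values are above the floor. The log2 ratio was 0.49, or 1.40-fold, which is about the size of the yardstick of 0.48 between probe sets of a gene.

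Nrp1 encodes neuropilin 1, a co-receptor of VEGF-A and of class 3 semaphorins. Probe set 1418084_at read 205 in Smad4 -/- and 98.6 in Smad4 f/f, at least 1.41-fold higher. Probe set 1448943_at read 176 in Smad4 -/- and 144 in Smad4 f/f, at least 1.21-fold higher. Both stood above the floor in Smad4 -/- and under it in Smad4 f/f, but only 1448943_at was just under. For 1418084_at the log2 difference before any floor was 1.06. The remaining probe sets of Nrp1 lay under the floor on both arrays and went the other way, with 10.8 in Smad4 -/- and 90.6 in Smad4 f/f for 1448944_at, and 10.1 in Smad4 -/- and 31.9 in Smad4 f/f for 1457198_at.

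Angpt1 encodes angiopoietin 1, the ligand that activates Tek. Probe set 1439066_at read 73569 in Smad4 -/- and 73356 in Smad4 f/f, a log2 ratio of 0.004. Probe set 1421441_at, built on a RefSeq mRNA, read 2518 in Smad4 -/- and 2273 in Smad4 f/f, a log2 ratio of 0.15. Each probe set gave nearly the same signal on both arrays, with a log2 ratio within the yardstick of 0.48. The SD of the log2 ratios of measured probe sets was 0.10 for Angpt1, 0.16 for Nrp1 and 1.58 for Flt1. The Nrp1 value covers only its 2 measured probe sets, whose ratios are lower bounds, and leaves out those that went the other way under the floor.

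Tek encodes the angiopoietin receptor. It has 1 probe set, 1418788_at, which read 111 in Smad4 -/- and 22.5 in Smad4 f/f. Both values are under the floor, so no fold is given.

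Robo4 encodes a roundabout receptor found mainly on endothelial cells. Its 1 probe set, 1426206_at, read 153 in Smad4 -/- and 257 in Smad4 f/f. The log2 ratio was -0.74, or 1.68-fold lower in Smad4 -/-, short of 2-fold, and the Smad4 -/- signal was just above the floor. It ranked 1732 from the lowest of the 21377 measured probe sets.

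The VEGF ligand genes and Flt4 gave no signal above the floor. Vegfa, the principal growth factor of blood vessels, read 27.4 and 25.4 in Smad4 -/- and 40.5 and 28.5 in Smad4 f/f by its 2 probe sets. Vegfb, a ligand of Flt1, read 54.5 in Smad4 -/- and 10.02 in Smad4 f/f. Vegfc, a ligand of Flt4, came closest to the floor by 1439766_x_at, with 123 in Smad4 -/- and 139 in Smad4 f/f.

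Other Vegfc probe sets went opposite ways under the floor. Probe set 1440739_at read 30.1 in Smad4 -/- and 64.5 in Smad4 f/f, and 1419417_at read 47.1 in Smad4 -/- and 4.20 in Smad4 f/f. Flt4, the receptor of VEGF-C, read 37.7 and 28.0 in Smad4 -/- and 70.4 and 40.9 in Smad4 f/f. Over the 11 probe sets of these genes, Nrp1 and Tek that stayed under the floor on both arrays, 6 had signals at least 2-fold apart before any floor. Over the whole array, 50.8% of the probe sets under the floor on both arrays (12025 of 23660) were that far apart, so these 6 are close to the background.

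Further ligands, receptors and co-receptors of these pathways were 14 genes, of which 13 had a probe set and 10 were measured. Of those 10, 1 passed 2-fold upwards and 0 downwards, and the median log2 ratio was 0.09, against a median of -0.02 over all 11380 measured genes. The background over those 11380 genes was 3.34% past 2-fold upwards and 3.59% downwards. Ptprb, the phosphatase VE-PTP that restrains Tek, read 331 in Smad4 -/- and 163 in Smad4 f/f, 2.03-fold higher by its 1 measured probe set. The call is at the edge of the rule of size, and Ptprb was not past it with the floor at the 75th percentile.

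Sdc2, a syndecan that binds VEGF through its sugar chains, read 596 in Smad4 -/- and 318 in Smad4 f/f, a log2 ratio of 0.91, and its other measured probe set gave 0.85. Pgf, the placental growth factor that binds Flt1, read 248 in Smad4 -/- and 41.7 in Smad4 f/f, at least 1.71-fold higher. Nrp2, the second neuropilin, read 175 in Smad4 -/- and 268 in Smad4 f/f, a log2 ratio of -0.61. Angpt2, the angiopoietin that can oppose Angpt1, and Tie1, the partner receptor of Tek, are named to complete the families and were chosen after their values were seen. Angpt2 read 224 in Smad4 -/- and 293 in Smad4 f/f, and Tie1 lay under the floor on both arrays with 19.9 in Smad4 -/- and 58.7 in Smad4 f/f.

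In 6 further lists, 2 genes passed 2-fold. Of the signalling genes below the VEGF receptors, 38 of 51 were measured and 0 passed 2-fold in either direction, with a median log2 ratio of -0.18. The log2 ratios of this list ran from -0.99 (Rac3) to 0.96 (Plcg1), close to the rule of size on both sides. Rac1, a small GTPase of cell movement, read 77989 in Smad4 -/- and 83316 in Smad4 f/f (log2 ratio -0.10). Pik3cd, a lipid kinase subunit, read 57126 in Smad4 -/- and 68581 in Smad4 f/f by its strongest probe set (log2 ratio -0.26). The 3 measured probe sets of Pik3cd ranged from -0.68 to 1.75, with a mean of 0.27. With median centring, quantile normalisation or loess correction, 1 gene of the list passed 2-fold upwards and 0 downwards. When the measured probe sets of a gene were averaged, 1 passed downwards (Bad, mean log2 ratio -1.13) and 0 upwards. With a floor at the 50th percentile or none, 1 passed upwards and 2 downwards. Of the genes of oxygen sensing upstream of Vegfa, all 10 were measured, 1 passed 2-fold downwards and 0 upwards, with a median of -0.20.

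Hif3a, a hypoxia-inducible factor subunit, read 760 in Smad4 -/- and 1646 in Smad4 f/f, 2.17-fold lower on its strongest probe set. Its 4 measured probe sets ranged from -1.12 to 0.32, and their mean of -0.40 is short of 2-fold. Egln3, an oxygen-sensing prolyl hydroxylase, read 850 in Smad4 -/- and 468 in Smad4 f/f (log2 ratio 0.86). Arnt2 had a log2 ratio of -0.66 with Smad4 -/- under the floor, but its other measured probe set gave 0.20. Epas1, which encodes HIF-2 alpha, had a log2 ratio of -0.54.

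Of 20 other platelet regulators of vessel growth, 13 were measured, 1 was at least 2-fold higher, 0 were lower and the median was 0.01. Col18a1, the collagen gene that gives rise to endostatin, read 293 in Smad4 -/- and 37.4 in Smad4 f/f, at least 2.02-fold higher, but not past 2-fold with the floor at the 75th percentile. Pdgfa, a platelet-derived growth factor chain, read 6634 in Smad4 -/- and 11431 in Smad4 f/f (log2 ratio -0.78). Sparc had a log2 ratio of -0.32, and Mmp2 one of -0.30 with Smad4 -/- under the floor (92.7, against 179 in Smad4 f/f). The probe sets of Sparc did not agree in direction, with a mean of 0.18.

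The semaphorin and plexin partners of the neuropilins had 8 of 12 genes measured, 0 past 2-fold and a median of -0.11. Plxna4 read 4445 in Smad4 -/- and 5002 in Smad4 f/f (log2 ratio -0.17), and its other measured probe set gave 0.20. Plxna1 read 145 in Smad4 -/- and 288 in Smad4 f/f by its strongest probe set (log2 ratio -0.98), but its other measured probe set gave 0.87. The Slit, Robo and Unc5b genes had 4 of 7 measured, 0 past 2-fold and a median of 0.09, with Slit1 at a log2 ratio of 0.25. Unc5b, a partner of Robo4, read 151 in Smad4 -/- and 84.6 in Smad4 f/f. With Smad4 f/f under the floor, its log2 ratio of 0.06 is a lower bound. Robo1 and Robo3 also had 1 side under the floor. Of the angiopoietin-like genes, 2 of 6 were measured, Angptl7 with a log2 ratio of 0.52 and Angptl1 with -0.18, for a median of 0.17.

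**Figure D3:**
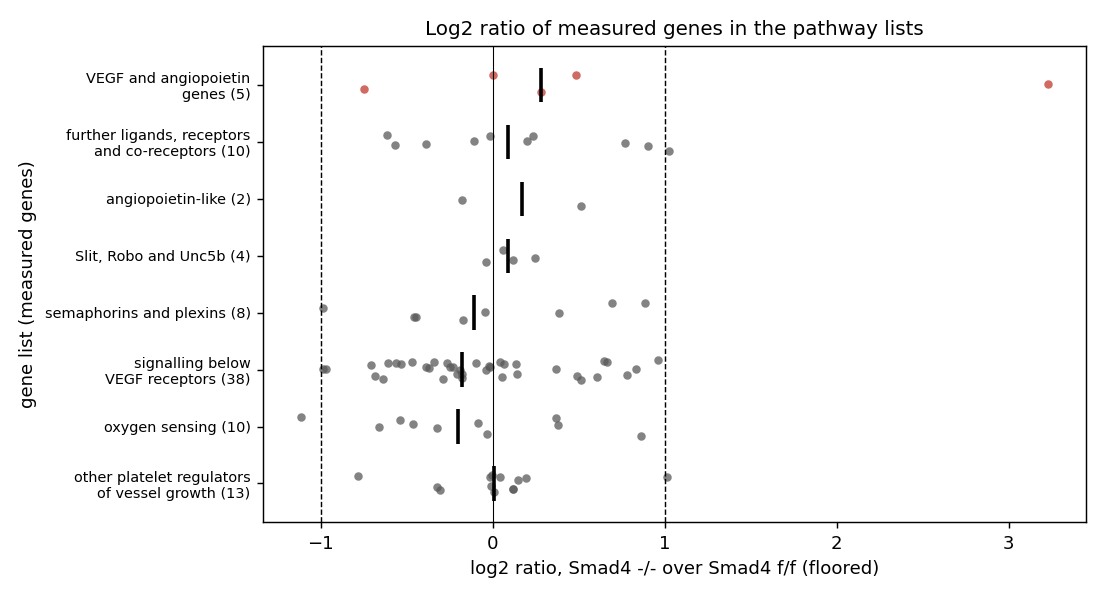
Log2 ratio of Smad4 -/- over Smad4 f/f for each measured gene of the VEGF and angiopoietin group (red) and of the 7 related lists (grey), with the number of measured genes in brackets. Black bars are medians and dashed lines mark 2-fold. Flt1 is the point at 3.23, and past the dashed lines otherwise lie Ptprb (1.02), Col18a1 (1.01) and Hif3a (-1.12).

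Several of these genes are known from endothelial cells, so markers of that cell type stand beside them. Of 20 endothelial markers, 14 were measured, 1 passed 2-fold upwards (Ptprb) and 0 downwards, with a median log2 ratio of 0.30. With median centring, 2 passed upwards and 0 downwards. Under a 50th percentile floor, 17 were measured, 1 passed upwards and 2 downwards, and the median was 0.11. With no floor, 2 passed upwards and 2 downwards, and under a 75th percentile floor 0 passed in either direction. The summed signal of all 20 markers, measured or not, over the strongest probe set of each gene, was 41625 in Smad4 -/- and 31720 in Smad4 f/f. The sum includes Esam and Pecam1, which platelets also express. Pecam1 read 4170 in Smad4 -/- and 2203 in Smad4 f/f, and Esam read 29173 in Smad4 -/- and 22458 in Smad4 f/f.

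Of the defining endothelial markers, Tie1, Emcn, Sox18, Cd34, Icam2 and Prox1 lay under the floor on both arrays. Cdh5, which encodes VE-cadherin, read 226 in Smad4 -/- and 192 in Smad4 f/f by its strongest probe set (log2 ratio 0.23), and the other gave 0.90. Plvap, a protein of endothelial diaphragms, read 3049 in Smad4 -/- and 2150 in Smad4 f/f (log2 ratio 0.50). Sox17 and Cldn5 had log2 ratios of 0.55 and 0.47, the second with Smad4 f/f under the floor. Mmrn2 had a log2 ratio of -0.79 with Smad4 -/- under the floor. The 2 measured probe sets of Erg went opposite ways, at -0.67 and 0.63, with a mean of -0.02. No marker of the list was listed at 0. The part of endothelial RNA in the Flt1 difference was not tested.

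**Figure D4:**
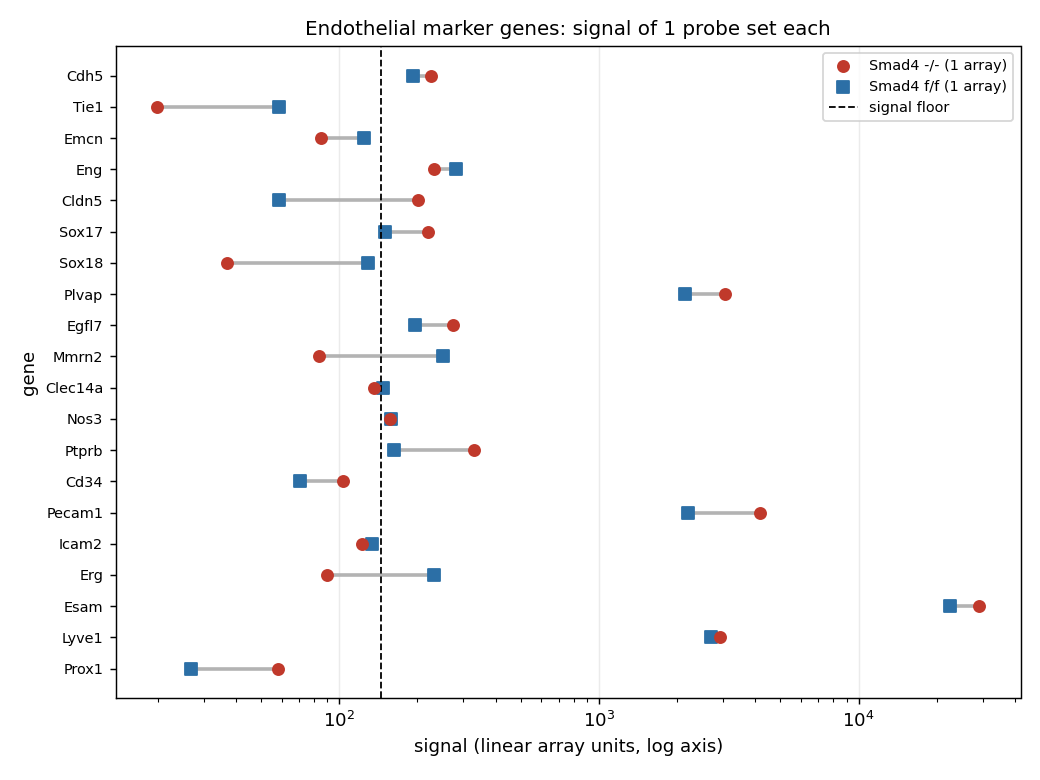
Signal of the 20 endothelial marker genes, 1 probe set each, on the Smad4 -/- array (circles) and the Smad4 f/f array (squares), on a log axis in linear array units with the floor of 145 as a dashed line. Gaps run in both directions, such as 331 against 163 for Ptprb and 83.4 against 251 for Mmrn2.

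Markers of other cells differed between the arrays as well. Of 14 erythroid markers 10 were measured, and 6 passed 2-fold upwards in Smad4 -/- and 0 downwards. The background share past 2-fold upwards, given above, was 3.34%. The 6 genes were Slc25a37 (log2 ratio 1.96), Fech (1.61), Bpgm (1.41), Alas2 (1.26), Car2 (1.26) and Slc4a1 (1.24). All of them lay above the floor on both arrays. Epb42 had a lower bound of 0.70 with Smad4 f/f under the floor. Tfrc and Klf1 went the other way, with log2 ratios of -0.61 and -0.31, and Gata1 had only 0.33. Hba-a1 lay under the floor on both arrays by its strongest probe set with a single symbol, with 28.7 in Smad4 -/- and 101.6 in Smad4 f/f. Probe sets with several symbols were left out, and Hbb-bt had no annotated probe set used here. The level of haemoglobin RNA therefore cannot be judged from this value. The summed signal of the erythroid list was 36084 in Smad4 -/- and 16160 in Smad4 f/f. Of 13 T and NK cell markers 7 were measured and 1 was at least 2-fold higher (2 with median centring), with a summed signal of 17305 in Smad4 -/- and 8184 in Smad4 f/f. That 1 gene was Cd28, and without it the sums were 4479 in Smad4 -/- and 3499 in Smad4 f/f, while Cd3d had a log2 ratio of -0.98. Of 9 B cell markers 7 were measured and 2 were at least 2-fold higher, with sums of 5192 in Smad4 -/- and 4272 in Smad4 f/f. Monocytes and macrophages, which can also carry Flt1, had 6 of 9 markers measured and 1 at least 2-fold higher, with sums of 132718 in Smad4 -/- and 140776 in Smad4 f/f. Nearly all of that sum is Lyz2, and without it the sums were 1458 in Smad4 -/- and 1053 in Smad4 f/f. The gene past 2-fold, Csf1r, read 518 in Smad4 -/- and 167 in Smad4 f/f by its strongest probe set, with a mean log2 ratio of 0.28 over 3, and Cd14 and Ccr2 lay under the floor on both arrays.

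Of 9 neutrophil markers 5 were measured and 0 passed 2-fold, with sums of 7674 in Smad4 -/- and 6002 in Smad4 f/f. Of 9 stromal and pericyte markers 4 were measured and 1, Acta2, gave 2.02-fold lower signal on its strongest probe set but lay within 2-fold with median centring, quantile normalisation or loess correction. Its other measured probe set gave a log2 ratio of 0.37. The sums of the stromal and pericyte list were 1235 in Smad4 -/- and 1631 in Smad4 f/f, and 885 in Smad4 -/- and 924 in Smad4 f/f without Acta2. The median log2 ratios of the marker lists were 1.25 for erythroid, 0.51 for T and NK cell, 0.50 for B cell, -0.04 for monocyte and macrophage, 0.23 for neutrophil and -0.37 for stromal and pericyte markers. The part of these cells, and of the Gapdh 3' to 5' difference, in the Flt1 values was not tested.

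**Figure D5:**
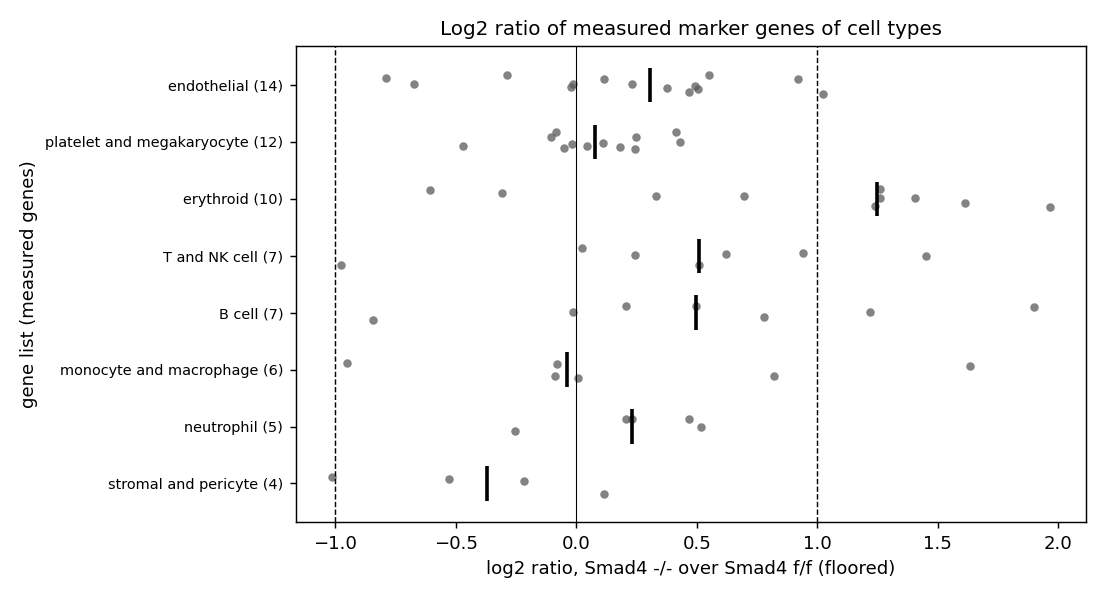
Log2 ratio of Smad4 -/- over Smad4 f/f for each measured marker gene of 8 cell types, with the number of measured genes in brackets, medians as black bars and 2-fold as dashed lines. The erythroid median is 1.25, the endothelial 0.30 and the platelet and megakaryocyte 0.08.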

How the data were processed

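Platelet RNA was labelled with biotin through a kit for 3' transcription and read on Affymetrix mouse arrays, per the labels. The authors deposited 1 log2 signal per probe set and array. The submitters' processing notes name MAS5, with its version, settings and detection calls not given in the sources used here. Both scale and scaling follow from the values: with 2% trimmed from each tail, the antilogs of either array average 500.01.

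Values were used as scaled by the authors. Of 45037 probe sets that are not controls, 34945 have 1 symbol, 932 several and 9160 none in an annotation that can be old. Only those with 1 symbol were given a gene. Looking symbols up by Entrez ID in RefSeq (GRCm38.p6) matched 34741 and changed 0. A gene took the value of its strongest measured probe set by mean log2 signal, and of an _x_at set only if it had nothing else. Ratios give Smad4 -/- over Smad4 f/f. Of each related list, up to 4 genes with the largest ratios were named, or the 2 with the highest signal where none passed 2-fold, and marker lists are given by counts with examples chosen after their values were seen. In the signalling list, Rac3, Plcg1 and Bad were also named after their values were seen. The genes and lists were chosen with earlier results of these data known. Alternatives were 3 scalings, other floors, folds of 1.5 and 3, other probe set filters and the mean of probe sets. The steps were tested on simulated data. Changes were planted there only in probe sets with a mean signal well above the floor, so signals under the floor were not covered. Python 3.11.15, pandas 2.3.3, numpy 2.4.6 and statsmodels 0.14.6 were used. The number of arrays limits the precision.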

Additional observations from a re-analysis of the deposited data

How the results depend on the processing

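Flt1 stayed at 2 probe sets past 2-fold on the higher side under median centring, quantile normalisation, loess correction, floors at the 50th and 75th percentiles, a 3-fold threshold and without _s_at and _x_at probe sets. The floor sets the size of its bounds: 1451756_at had a log2 ratio of 3.71 under a 50th percentile floor, 2.39 under a 75th and 4.18 under none, and 1419300_at had 3.10, 1.78 and 5.02. The count for the VEGF and angiopoietin probe sets was 3 higher with no floor, where Nrp1 1418084_at reached 1.06. At 1.5-fold it was 3 higher, with Flt1 1440926_at (log2 ratio 0.77) as the added probe set, and 1 lower (Robo4). Over all probe sets, the counts higher and lower were 1328 and 1575 under a 50th percentile floor, 296 and 257 under a 75th, 2528 and 3028 under none, 2446 and 2835 at 1.5-fold and 103 and 92 at 3-fold. In the related pathway lists together, 2 genes were higher and 1 lower, against 6 and 4 under a 50th percentile floor, 0 and 1 under a 75th, and 9 and 6 under none. The cause of these moves was not tested. The arrays' median log2 signals differ by -0.09, which median centring removes. No paired analysis was possible because each genotype has 1 array, and no replicate could be left out. Signals under the floor limit what can be said of Vegfa, Vegfb, Vegfc, Flt4 and Tek.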
